A study of Mesocricetus auratus with 6 samples.

Results

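The genes described here are markers of leukocytes, the white blood cells, and above all of macrophages, in the pregnant uterus of Syrian golden hamsters (Mesocricetus auratus) at the time of blastocyst attachment. The list held 43 genes, and its members were all probe sets whose platform annotation named 1 of these genes and no other. That gave 68 probe sets for 42 genes, of 22215 probe sets tested. The remaining gene, CD68, a lysosomal glycoprotein of macrophages, has a probe set that the annotation also assigns to a small nucleolar RNA, so no value is given for it. The members were kept apart as myeloid markers (36 probe sets), lymphoid markers (16), genes shared by most leukocytes together with the antigen presentation chaperone CD74 (8), and chemokines with 1 chemokine receptor (8). Of the 42 genes, 25 had 1 probe set, 10 had 2, 5 had 3 and 2 had 4.

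Whole tissue was taken on day 5 of pregnancy, without any treatment, from uterus that held an embryo (implantation sites, 3 arrays) and from uterus between embryos (interimplantation sites, 3 arrays). The sources used here name neither strain nor age of the animals. The design text speaks of 3 animals and the labels call the arrays of a group biological replicates, but no label ties an array to an animal, so the tests rest on the spread between arrays, which may in part be technical. The RNA was hybridised to an Affymetrix array made for human transcripts, so a probe set reads a hamster transcript only as far as the sequences match, and its level cannot be set against that of another probe set.

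The uterus at implantation holds resident and recruited leukocytes: macrophages, dendritic cells, natural killer (NK) cells and, in smaller numbers, T cells, mast cells and neutrophils. Macrophages and other myeloid cells depend on the transcription factor PU.1, the product of SPI1, and on the growth factor CSF1, which uterine epithelium is known to make under control of ovarian hormones and which acts through the receptor CSF1R. In rodents, uterine NK cells expand in the decidua as it forms around the embryo. The comparison asks which of these marker transcripts differ between uterus with and without an embryo on the same day.

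Few leukocyte marker probe sets differed between the kinds of site, as was so for all probe sets. Of the 68 member probe sets, 0 rose and 1 fell (1.47%) in limma's test, the one for SPI1 (adjusted p = 0.0440). Of all probe sets, 1.06% were called in either direction, 0.702% higher and 0.356% lower. With p under 0.05 before adjustment there were 0 higher and 4 lower members, all of them myeloid. They are 5.88% of members and 11.1% of the 36 myeloid probe sets, against 10.5% of all probe sets (5.27% higher and 5.23% lower). The groups did not overlap in 10 members, 4 higher and 6 lower, which is 14.7% against 16% of all probe sets (7.72% higher and 8.3% lower). Of the myeloid probe sets, 2 were higher and 5 lower in this way, or 19.4%. The median difference over the members (log2 implantation minus interimplantation site) was −0.019, and over all probe sets −0.0099. The share of members with a difference under 0.1 in either direction was 69.1%, against 63.7% of all probe sets.

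The 95% interval of limma's fit, taken for each probe set on its own, shows how large a difference these arrays leave room for. For 67 of the 68 members this interval lay between 1.5-fold lower and 1.5-fold higher, SPI1 being the exception, and for 61 it lay within 1.3-fold. The share of all probe sets within these bounds was not counted. The median SE was 0.086 over members and 0.085 over all probe sets, so narrow intervals are not particular to the members. The bound is on the signal of a probe set, and for a dim one it says little about the transcript.

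**Figure D1:**
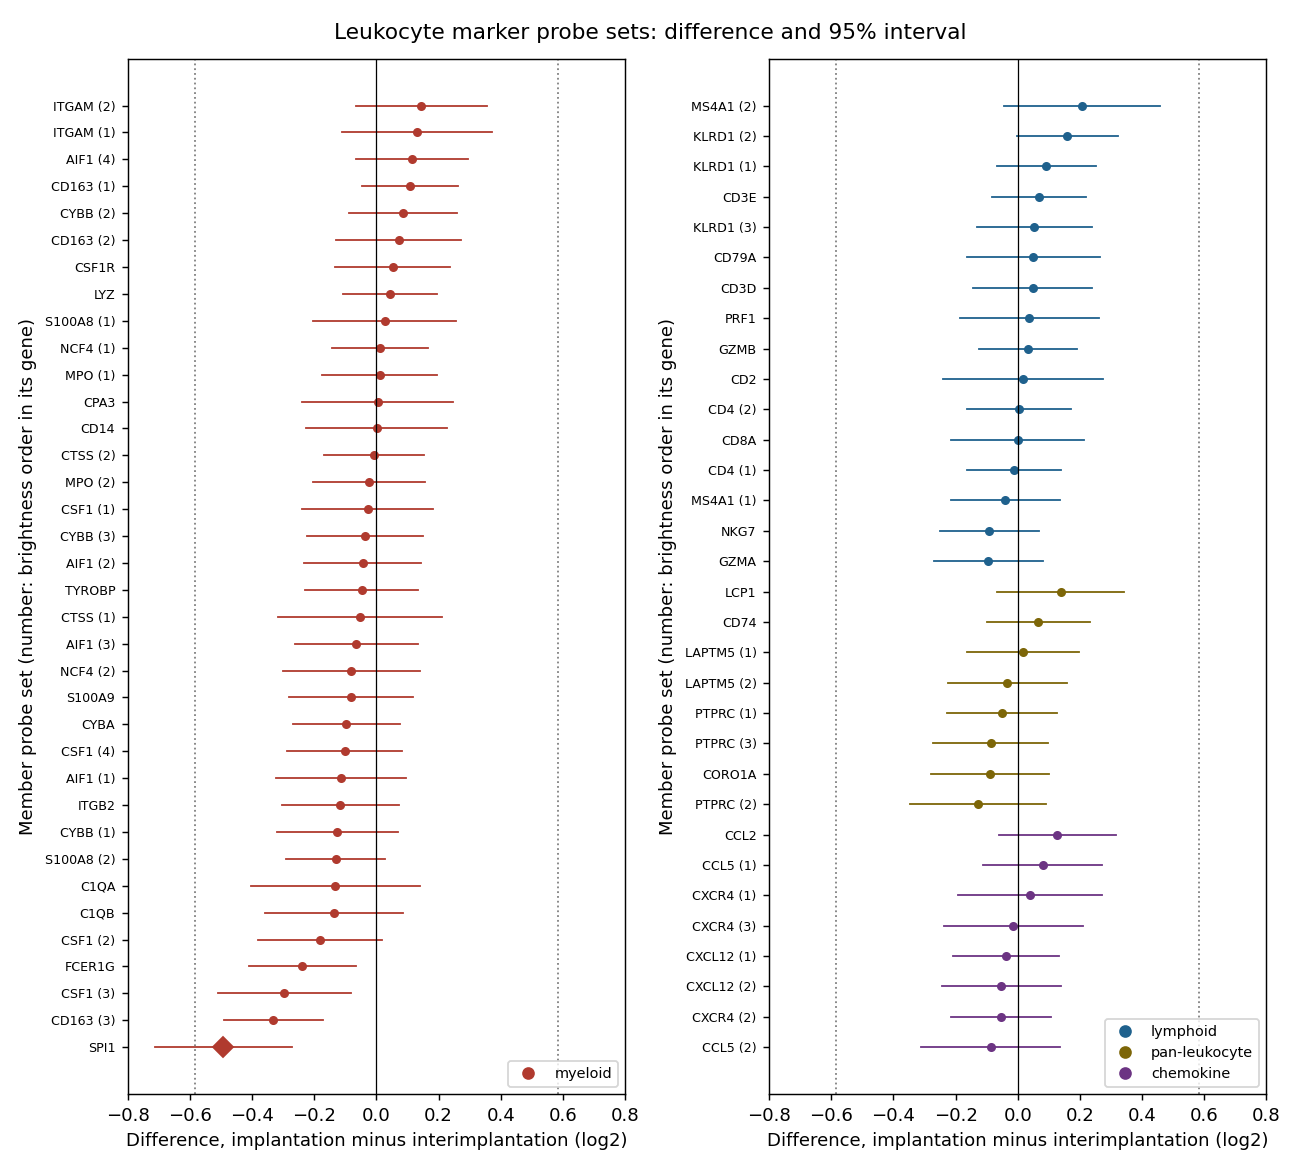
Difference between implantation and interimplantation sites (log2, horizontal axis) for each of the 68 member probe sets, with the 95% interval of limma's fit as a line. Dotted lines mark 1.5-fold in either direction, numbers in brackets give the brightness order of a gene's probe sets, and the diamond marks SPI1, the one member past an adjusted p of 0.05, whose interval alone crosses a dotted line.

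Members ranged from dim to bright. Over all probe sets the quartiles of the mean level were 3.10, 4.19 and 5.18 (log2). Of the members, 39 lay at or above the median and 14 under the first quartile, and 28 of the 42 genes had a probe set at or above the median. Read at its brightest probe set, LYZ (lysozyme) was the dimmest gene, with a mean level of 2.22, and the probe sets of S100A8 (a calcium-binding protein of neutrophils and monocytes) had 2.65 and 2.34. TYROBP, the signalling adaptor DAP12, lay at 3.03 and CD14, a receptor for bacterial lipopolysaccharide, at 3.40. The RefSeq annotation of the hamster assembly BCM_Maur_2.0 held a gene of the same symbol for 34 of the 43 listed genes. The 9 without one were TYROBP, CD163, CYBB, CYBA, S100A8, GZMA, GZMB, KLRD1 and CCL2.

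**Figure D2:**
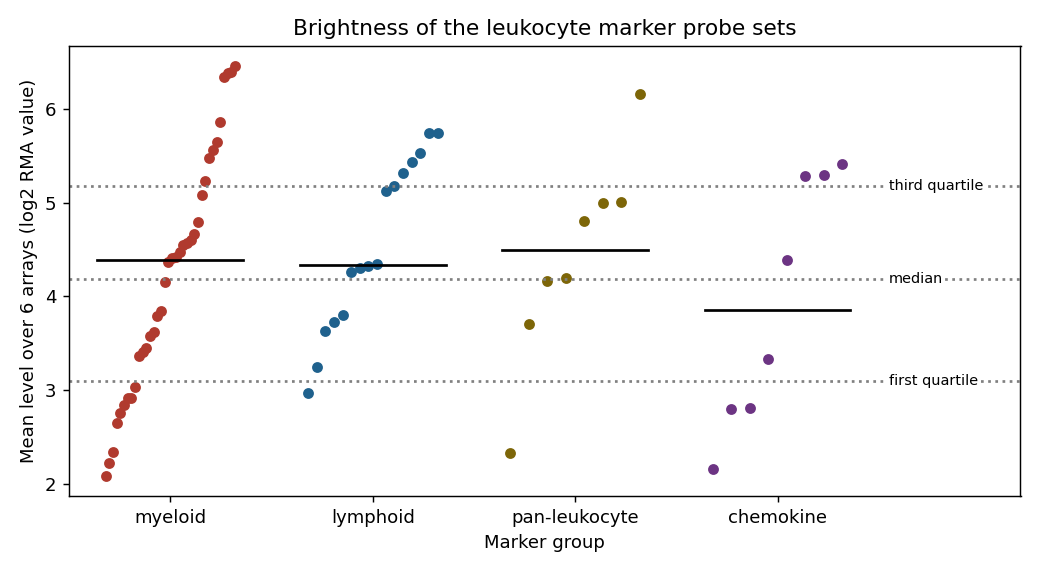
Mean level over the 6 arrays (log2 RMA value, vertical axis) of each member probe set, by marker group, with the group median as a black bar and the quartiles of all probe sets as dotted lines. Probe sets of each group lie on both sides of the median of 4.19, and 14 of 68 lie under the first quartile of 3.10.

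SPI1 encodes PU.1, the transcription factor that directs myeloid and B cell development and binds control regions of genes such as CSF1R and ITGAM. Its single probe set read 3.76, 3.44 and 3.59 at implantation sites 1, 2 and 3 and 4.25, 4.01 and 3.999 at interimplantation sites 1, 2 and 3. Every implantation array was below every interimplantation array. The means were 3.59 ± 0.16 and 4.09 ± 0.14 (SD, n = 3 arrays each), a level 1.41-fold lower at implantation sites (log2 −0.49 ± 0.10 SE, adjusted p = 0.0440 by limma). In pieces of whole tissue, fewer cells of a type and less RNA per cell cannot be told apart, here and in what follows. The call was not firm. The adjusted p was 0.146 without implantation site 2, 0.161 without implantation site 3, 0.104 without interimplantation site 1, 0.0897 without interimplantation site 2 and 0.0901 without interimplantation site 3, with differences of −0.41 to −0.57 over the 6 arrays left out in turn. It was also lost after cyclic loess (0.0529), without probe sets marked as cross-hybridising (0.0529), without these and those shared by several transcripts (an identifier ending in s_at; 0.0638) and with the mean of each gene's probe sets (0.0520), where the difference stayed at −0.49. In all, SPI1 passed in 6 of 15 alternatives, among them repeated quantile normalization (0.0475), genes at their brightest probe set (0.0372) and array weights (0.0191). With the mean of 3.84 SPI1 was dimmer than the median probe set.

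CSF1R and ITGAM, which PU.1 is known to control, did not pass the threshold, nor did the oxidase genes of phagocytes. CSF1R, the receptor for CSF1 and a defining gene of macrophages, read 5.25, 5.33 and 5.20 at implantation sites and 5.22, 5.33 and 5.07 at interimplantation sites. These ranges overlapped, and the difference was 0.05 ± 0.08 SE with a 95% interval of −0.13 to 0.24. ITGAM, the alpha chain of complement receptor 3 (CD11b), differed by 0.13 ± 0.11 SE at its brighter probe set and by 0.14 ± 0.10 SE at the other, with overlapping groups. Its partner chain ITGB2 (CD18), which all leukocyte beta2 integrins share, was at −0.12 ± 0.09 SE. CYBB, the catalytic subunit of the phagocyte oxidase, was at −0.13 ± 0.09 SE at its brightest probe set. The oxidase subunits CYBA and NCF4 were at −0.10 ± 0.08 SE and 0.01 ± 0.07 SE at theirs.

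CSF1 itself was lower at each of its 4 probe sets, none past the threshold. The brightest, with a mean of 5.65, read 5.53, 5.82 and 5.56 at implantation sites and 5.74, 5.73 and 5.53 at interimplantation sites, so the groups overlapped (log2 −0.03 ± 0.10 SE). The third in brightness read 4.79, 4.61 and 4.53 at implantation sites against 4.88, 4.82 and 5.11 at interimplantation sites. There the groups were apart, with a difference of −0.30 ± 0.10 SE (unadjusted p = 0.0109, adjusted p = 0.263). The other two differed by −0.18 ± 0.09 SE and −0.10 ± 0.08 SE. The 4 probe sets share a gene and the same RNA, and they are not replicates of the comparison.

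FCER1G, the gamma chain through which Fc receptors signal, read 5.75, 5.76 and 5.72 at implantation sites. At interimplantation sites it read 5.88, 5.97 and 6.10. The implantation arrays were all lower and close to each other (5.75 ± 0.02 against 5.98 ± 0.11, SD, n = 3), with a difference of −0.24 ± 0.08 SE that did not pass (unadjusted p = 0.0112, adjusted p = 0.266). TYROBP, an adaptor built on a similar signalling motif, was at −0.05 ± 0.08 SE.

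CD163, the scavenger receptor for haemoglobin bound to haptoglobin and a marker of resident macrophages, gave opposite readings. Its dimmest probe set, with a mean of 2.76, read 2.58, 2.63 and 2.56 at implantation sites and 2.94, 2.97 and 2.86 at interimplantation sites. The groups were apart, by −0.33 ± 0.07 SE (unadjusted p = 0.000759, adjusted p = 0.0601). This probe set passed in 2 of 15 alternatives, with array weights (adjusted p = 0.0359) and with a trended, robust prior (adjusted p = 0.0438). It missed the threshold in the other 13, with adjusted p of 0.103 to 0.235 when single arrays were left out. Its brightest probe set, with a mean of 4.55, read 4.60, 4.64 and 4.58 at implantation sites and 4.53, 4.52 and 4.45 at interimplantation sites. There the groups were apart the other way, by 0.11 ± 0.07 SE (unadjusted p = 0.158). The remaining probe set was at 0.07 ± 0.09 SE, so the data give no single direction for CD163.

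**Figure D3:**
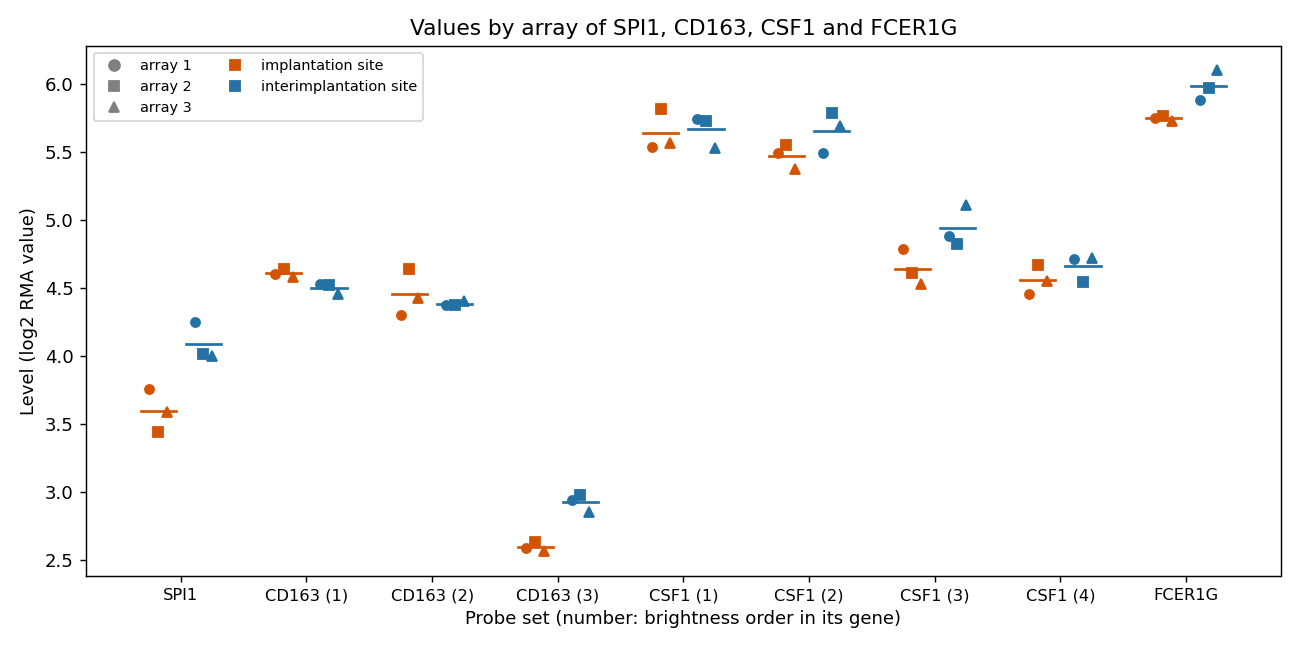
Level in each array (log2 RMA value, vertical axis) of every probe set of SPI1, CD163, CSF1 and FCER1G, with group means as bars, implantation sites in orange and interimplantation sites in blue. SPI1, the dimmest CD163 probe set, the third CSF1 probe set and FCER1G have all implantation arrays below all interimplantation arrays, while the brightest CD163 probe set has them above.

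CD14 read 3.63, 3.33 and 3.24 at implantation sites and 3.47, 3.30 and 3.44 at interimplantation sites, with means of 3.40 in both groups. Its difference was 0.0011 ± 0.10 SE, and the groups overlapped. AIF1 (IBA1), an actin-binding protein of macrophages, had 3 bright probe sets that the array design marks as prone to cross-hybridise (an identifier ending in x_at), at −0.11, −0.04 and −0.07 and a dimmer one, not so marked, at 0.11. CTSS, a lysosomal protease that trims the invariant chain for antigen presentation, was at −0.05 ± 0.12 SE at its brighter probe set. The neutrophil and mast cell genes MPO (myeloperoxidase), S100A9 and CPA3 (mast cell carboxypeptidase) were at 0.01, −0.08 and 0.0039 at their brightest probe sets, with overlapping groups. The dim gene S100A8 was at 0.03 ± 0.10 SE at its brighter probe set, with overlapping groups. At the other its groups were apart, by −0.13 ± 0.07 SE (unadjusted p = 0.0988 by limma). LYZ, dim as well, was at 0.04 ± 0.07 SE with groups apart.

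C1QA and C1QB, chains of the complement component C1q that tissue macrophages secrete, were both high in a single array. C1QA read 4.35, 4.36 and 4.33 at implantation sites and 4.33, 4.28 and 4.82 at interimplantation sites. For C1QB the values were 4.28, 4.32 and 4.29 at implantation sites and 4.37, 4.26 and 4.67 at interimplantation sites. Interimplantation site 3 was the high array for both, and the other arrays lay close together. The group differences were −0.13 ± 0.12 SE and −0.14 ± 0.10 SE, with unadjusted p of 0.307 and 0.204.

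The same array was the highest of the 6 for 14 of the 36 myeloid probe sets, or 38.9%, against 22.3% of all probe sets. Among them were FCER1G, CYBA, the third CSF1 probe set and the brightest probe sets of AIF1 and CYBB. Among the 16 lymphoid probe sets it was the highest for 1. In implantation site 1, 7 of the 8 chemokine probe sets had their lowest value, where this array was the lowest for 23.5% of all probe sets. Such single arrays are a description, since arrays of a group have no order and the cause was not tested.

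**Figure D4:**
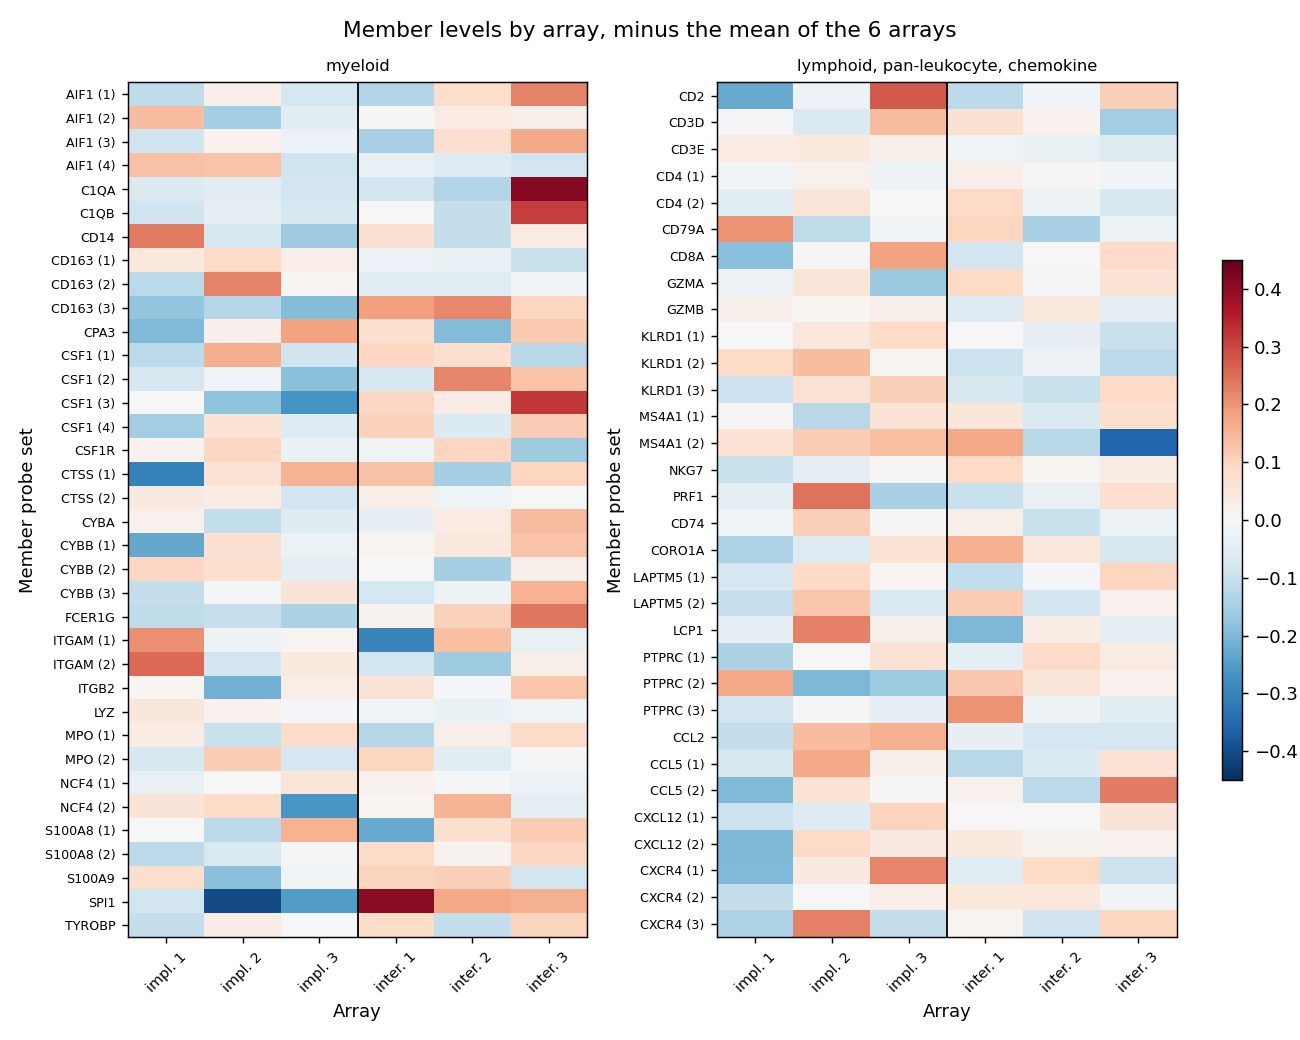
Level of each member probe set in each array minus its mean over the 6 arrays (log2, colour), myeloid markers on the left and the other markers on the right, with implantation sites (impl.) left of the black line and interimplantation sites (inter.) right of it. C1QA and C1QB are high in interimplantation site 3, and SPI1 is the clearest row in which colour changes at the line.

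As a group the myeloid probe sets had a median difference of −0.05, against −0.0099 over all probe sets, with 23 of 36 lower. Without SPI1 the median was −0.04. This median ranged from −0.06 to −0.01 when single arrays were left out, a range smaller than the spread of the per-array medians (SD 0.064). The median difference was itself smaller in size than that SD.

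Lymphoid markers showed 0 calls in 16 probe sets and 0 with an unadjusted p under 0.05, against 1.06% and 10.5% of all probe sets. Their median difference was 0.04. CD3E, a chain of the T cell receptor complex, read 5.48, 5.48 and 5.46 at implantation sites and 5.42, 5.41 and 5.39 at interimplantation sites. The groups were apart by 0.07 ± 0.07 SE only, with a 95% interval of −0.08 to 0.22 (unadjusted p = 0.342). CD8A, the co-receptor of cytotoxic T cells, read 5.35, 5.54 and 5.72 at implantation sites and 5.45, 5.54 and 5.62 at interimplantation sites, with overlapping groups and a difference of −0.00028 ± 0.098 SE. CD4, the co-receptor of helper T cells, was at −0.01 ± 0.07 SE at its brighter probe set, CD3D at 0.05 ± 0.09 SE and CD2, an adhesion receptor of T and NK cells, at 0.02 ± 0.12 SE.

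Genes of cytotoxic cells did not move one way. KLRD1 (CD94), a receptor of NK cells, was higher at each of its 3 probe sets, by 0.09, 0.16 and 0.05 from the brightest to the dimmest. All but the brightest are marked as cross-hybridising. The middle one read 5.22, 5.27 and 5.14 at implantation sites against 5.03, 5.11 and 5.01 at interimplantation sites. Those groups were apart, with an unadjusted p of 0.0527 (adjusted p = 0.485). The granule genes GZMA and GZMB, serine proteases, were at −0.09 ± 0.08 SE and 0.03 ± 0.07 SE, and PRF1 (perforin, which forms pores) at 0.04 ± 0.10 SE. NKG7, a granule membrane protein, was at −0.09 ± 0.07 SE with groups apart. The B cell markers CD79A and MS4A1 (CD20) were at 0.05 ± 0.10 SE and, at the brighter probe set of MS4A1, −0.04 ± 0.08 SE. The other MS4A1 probe set had the largest positive difference of all members, 0.21 ± 0.11 SE, with an unadjusted p of 0.0955. Each MS4A1 probe set is marked as cross-hybridising.

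Genes shared by most leukocytes gave 0 calls in 8 probe sets, where 1.06% of all probe sets were called. PTPRC (CD45), the phosphatase that defines leukocytes, read 4.05, 4.19 and 4.26 at implantation sites and 4.15, 4.28 and 4.23 at interimplantation sites. The groups overlapped, with a difference of −0.05 ± 0.08 SE and a 95% interval of −0.23 to 0.13. The other PTPRC probe sets were at −0.13 ± 0.10 SE and −0.09 ± 0.08 SE. LAPTM5, a lysosomal membrane protein of blood cells, was at 0.02 ± 0.08 SE at its brighter probe set and −0.03 ± 0.09 SE at the other, and the actin regulators LCP1 and CORO1A at 0.14 ± 0.09 SE and −0.09 ± 0.09 SE. CD74, the invariant chain of class II molecules, read 4.80, 4.91 and 4.82 at implantation sites and 4.84, 4.71 and 4.78 at interimplantation sites. Its groups overlapped, with a difference of 0.07 ± 0.08 SE.

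Chemokines, which attract leukocytes, gave 0 calls in 8 probe sets as well, against the same 1.06% of all probe sets. CXCL12, made by stromal cells, read 5.19, 5.23 and 5.39 at implantation sites and 5.28, 5.29 and 5.35 at interimplantation sites, with overlapping groups (log2 −0.04 ± 0.08 SE). Its receptor CXCR4 was at 0.04 ± 0.11 SE at the brightest of 3 probe sets. CCL2, which draws monocytes, read 3.22, 3.47 and 3.49 at implantation sites and 3.29, 3.25 and 3.25 at interimplantation sites. The first implantation array lay below all interimplantation arrays and the others above, giving 0.13 ± 0.09 SE. CCL5, which draws T cells, was at 0.08 ± 0.09 SE at its brighter probe set and −0.09 ± 0.10 SE at the other.

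Where a gene had several probe sets, they often disagreed in sign. Of 17 such genes, all probe sets were lower for CSF1, CTSS, CXCL12 and PTPRC, all were higher for ITGAM and KLRD1, and signs were mixed for 11. Read at the brightest probe set, 20 genes were lower and 22 higher.

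A wider set of 145 measured leukocyte genes that are no members, with 232 probe sets, gave 0 calls higher and 2 lower. That is 0.862%, against 1.06% of all probe sets. The 2 called were HLA-B, a class I antigen presentation gene, and APOE, a lipoprotein component made by macrophages and by other cells. HLA-B read 6.16, 6.10 and 6.13 at implantation sites and 6.42, 6.55 and 6.51 at interimplantation sites at its brightest probe set. The groups were clearly apart, by −0.36 ± 0.07 SE (adjusted p = 0.0398 by limma). Its other probe sets were at −0.21 and 0.11 and did not pass. The call missed the threshold without any 1 of 5 arrays: implantation site 1 (adjusted p = 0.103), 2 (0.134) or 3 (0.155) and interimplantation site 2 (0.140) or 3 (0.136). The difference stayed between −0.34 and −0.40 over the 6 arrays left out in turn. It was lost as well with the mean of the gene's probe sets (log2 −0.15, adjusted p = 0.523). Class I genes are many and alike, and a human HLA-B probe set marked as cross-hybridising cannot be tied to 1 hamster gene.

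TAP1, a subunit of the pump that supplies peptides for class I molecules, read 4.68, 4.91 and 4.66 at implantation sites and 5.31, 4.98 and 4.96 at interimplantation sites. The groups were apart by −0.33 ± 0.11 SE without passing (adjusted p = 0.250), while the brightest probe set of its partner TAP2 was at 0.25 ± 0.09 SE (adjusted p = 0.323) and the other two at 0.05 and −0.0062. Of 50 probe sets of antigen presentation, 2 were higher and 6 were lower with p under 0.05 before adjustment, 16% against 10.5% of all probe sets (5.27% higher and 5.23% lower). The 6 included 3 of the 7 probe sets of HLA-DQB1, all marked as cross-hybridising, at −0.31, −0.27 and −0.25. The others of HLA-DQB1 lay between −0.08 and 0.02. The 2 higher were HLA-DOB, at 0.26, and the brightest probe set of TAP2. After adjustment 0 rose and 1, that of HLA-B, fell.

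Among 65 probe sets of further macrophage and monocyte genes, 0 rose and 1 fell, a cross-hybridising probe set of APOE (log2 −0.79 ± 0.09 SE, adjusted p = 0.00130 by limma). It read 5.13, 4.92 and 5.16 at implantation sites and 5.77, 5.88 and 5.91 at interimplantation sites, with the groups far apart. Its other probe sets were lower by less, at −0.29 and −0.27, and did not pass. IRF8, a transcription factor that works with PU.1, was at 0.24 ± 0.10 SE (adjusted p = 0.439) and TGFB1, a cytokine that restrains inflammation, at −0.27 ± 0.08 SE at one probe set (adjusted p = 0.196) and −0.05 ± 0.08 SE at the other.

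The remaining leukocyte lists had 0 calls in limma's test, where 1.06% of all probe sets were called. Of 45 probe sets of T and NK cell genes, 0 had an unadjusted p under 0.05. Of 14 B cell probe sets, 3 were higher and 1 lower at that p (28.6%, against 10.5% of all probe sets), led by CD38, an ectoenzyme of plasma cells and other cells (0.28 ± 0.07 SE, adjusted p = 0.113). Of 28 granulocyte and mast cell probe sets, 3 were higher and 0 lower (10.7%), led by the eosinophil protein PRG2 (0.23 ± 0.07 SE, adjusted p = 0.200). Of 30 probe sets of other chemokines and receptors, 2 were higher and 1 lower (10%), with the lymphatic chemokine CCL21 at −0.22 ± 0.09 SE (adjusted p = 0.394).

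Summed linear signals give most weight to the brightest probe sets of a list. The sum of 36 myeloid probe sets was 946 to 968 at implantation and 969 to 1049 at interimplantation sites. The groups did not overlap, but only by a narrow margin (968.4 against 969.2). The sums were also apart for antigen presentation (1551 to 1558 against 1612 to 1634) and for the other macrophage and monocyte genes (1522 to 1544 against 1572 to 1587). In each of these lists the median log2 level of the arrays overlapped between groups, for myeloid members at 4.26 to 4.34 against 4.27 to 4.43. Their mean log2 levels were apart, for myeloid members at 4.19 to 4.21 against 4.24 to 4.31. Lymphoid members summed to 440 to 465 against 434 to 443, pan-leukocyte members to 208 to 228 against 217 to 221. Chemokine members summed to 156 to 182 against 169 to 172, and the groups overlapped in all of these. The sums of the remaining 4 leukocyte lists overlapped too. Sums of smooth muscle, epithelium, endothelium and of red cell and platelet genes, given below, were apart as well, all lower at implantation sites. A lower sum was therefore not particular to the myeloid markers. The sum over all probe sets was not compared.

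Markers of other cells in the tissue were read in the same way. Of all probe sets, 1.06% were called and 10.5% had an unadjusted p under 0.05. Smooth muscle summed to 650 to 670 against 701 to 816, with 0 rises and 2 falls in 26 probe sets and 26.9% at an unadjusted p under 0.05. The 2 were ACTG2 and TAGLN, contractile and actin-binding proteins of smooth muscle (log2 −0.80 and −0.56, adjusted p = 0.0488 and 0.0369 by limma). Both missed the threshold without any 1 of 5 arrays, implantation site 1, 2 or 3 or interimplantation site 2 or 3, with an adjusted p of up to 0.146 and 0.158. Epithelium summed to 408 to 440 against 467 to 484, with 0 rises and 1 fall in 20 probe sets and 25% at an unadjusted p under 0.05. The fall was in SOX17, a transcription factor of uterine epithelium (log2 −0.78, adjusted p = 0.0103 by limma), and missed the threshold without implantation site 1 (0.0639).

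Stroma overlapped at 3578 to 3780 against 3142 to 3631, with 1 rise and 1 fall in 24 probe sets and 37.5% at an unadjusted p under 0.05. The rise was in a cross-hybridising probe set of the collagen gene COL1A1 (log2 0.56, adjusted p = 0.00955 by limma), at 0.28 after repeated quantile normalization (adjusted p = 0.137), at 0.28 with gene means (0.0677) and at 0.52 without implantation site 1 (0.0513). The fall was in the brightest probe set of the growth factor receptor PDGFRA (log2 −0.66, adjusted p = 0.00655 by limma). All 3 probe sets of PDGFRA were lower, the least by −0.06. The call held in 15 of 16 alternatives and was lost with gene means (log2 −0.26, adjusted p = 0.117). Red cell and platelet genes summed to 651 to 684 against 710 to 757, with 0 of 8 called and 2 lower at an unadjusted p under 0.05. These were 2 of the 3 haemoglobin HBB probe sets, at −0.23 and −0.31 (adjusted p = 0.244 and 0.227). Endothelium summed to 285 to 293 against 297 to 313, with 0 of 13 called and 0 at an unadjusted p under 0.05.

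RNA quality was read as the signal of the 3′ minus the 5′ end of control transcripts (log2 means with SD over 3 arrays each). Human probe sets read both ends, so the value also holds how well each matches the hamster transcript. Its size and sign alone are therefore no measure of RNA quality. For actin it was −2.08 ± 0.22 at implantation and −1.70 ± 0.15 at interimplantation sites, with groups apart. An exact two-sided permutation test gave p = 0.1 for it, the smallest that n = 3 allows. For GAPDH it was −0.20 ± 0.16 against 0.13 ± 0.17, with overlapping groups (exact permutation p = 0.2). The part of the other cells' markers and of RNA quality in the values of SPI1, FCER1G, HLA-B and APOE was not tested.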

How the data were processed

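The values were deposited by the authors on a log2 scale, after RMA in Partek 6.6 according to the submitters' processing notes. This method removes background, gives each array the same distribution and combines the probes of a set. The log base, not stated, was read from the range of the values. Since medians of the arrays were 4.18 to 4.20, differences in total RNA between tissue pieces cannot be seen. Arrays correlated at 0.985 to 0.995. From 22283 probe sets, 68 controls were left out. Platform annotation gave 1 gene to 19065 of the rest, several to 1043 and none to 2107.

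All 22215 probe sets were fitted with lmFit and eBayes of limma 3.58.1 (R 4.3.3), two-sided, with 2 groups and Benjamini-Hochberg adjustment over all of them and a threshold of 0.05. Group means carry the SD over 3 arrays, and differences the SE of the fit. The number of arrays limits the precision. The fit was tested on simulated data. The members and lists were chosen with earlier results of these data known. Values in every array are given for members with an unadjusted p under 0.05, for a set of defining genes, and for C1QA, C1QB, KLRD1, CCL2, HLA-B, TAP1 and APOE, which were taken up after their values were seen. Summed signals are sums of 2 to the power of the deposited value. Alternatives were other normalizations, filters on brightness and cross-hybridisation, gene-level readings, array weights, a trended prior, the replicate number as a block, and leaving out each array.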

Additional observations from a re-analysis of the deposited data

How the results depend on the processing

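The count of lower member probe sets, 1 in the fit reported, was 0 after cyclic loess, 0 with dimmer probe sets than the median removed (which leaves out SPI1), 0 without cross-hybridising probe sets, 0 without these and shared ones and 0 with gene means. It was 2 with array weights and 2 with a trended, robust prior, where a CD163 probe set joined SPI1, and 0 to 1 when single arrays were left out. Higher members stayed at 0 in all of these. In the wider leukocyte set, whose alternatives were chosen after the data were seen, the lower count of 2 became 0 without cross-hybridising probe sets and 0 without these and shared ones, 1 with genes at their brightest probe set, 1 with gene means and 1 with the replicate block (HLA-B missed it, adjusted p = 0.0705), and 1 to 2 with single arrays left out. The causes were not tested beyond the loss of the probe sets concerned.

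Some differences changed sign. CD8A was at 0.011 after repeated quantile normalization, 0.0040 after cyclic loess and 0.054 with array weights, and CD14 at −0.041 with array weights. The CD163 reading of −0.33 became 0.11 with genes at their brightest probe set, which puts another probe set in its place. With single arrays left out, CD8A ranged from −0.092 to 0.093, CD14 from −0.11 to 0.081, the brightest CSF1 probe set from −0.12 to 0.023, CSF1R from −0.013 to 0.12, CXCL12 from −0.10 to 0.0028 and PTPRC from −0.10 to 0.0064. The medians of the 4 marker groups moved by less than the spread between arrays in each alternative. That spread (SD 0.064 to 0.094) exceeded the medians themselves, so it cannot tell whether a sign held. Myeloid medians stayed negative and lymphoid ones positive throughout. The pan-leukocyte median of −0.042 became 0.016 at brightest probe sets and 0.0086 without implantation site 1. The chemokine median of −0.025 became 0.060 and 0.044 there, 0.0017 without dimmer probe sets and 0.0039 without interimplantation site 3.

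Replicate numbers were not taken to pair the arrays, since no label says so and no correlation of same-numbered arrays passed 0.1. Their deviations correlated at 0.0541, −0.00247 and 0.0704, against −0.0694 to 0.0115, −0.014 to 0.0175 and −0.0545 to −0.0121 with other numbers. Numbers 1 and 3 thus lay above, and 2 within, the values of other numbers. With the replicate block the calls over all probe sets were 159 higher and 93 lower, against 156 and 79, member calls stayed at 0 higher and 1 lower, and the adjusted p of SPI1 was 0.0164. Whether dim signal or the human probe design lowered the differences was not tested.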
